A study of Mus musculus with 16 samples.

Results

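The collagen genes encode the chains of the collagen triple helices. They were taken as the protein-coding genes of the GENCODE M1 annotation of mm9 whose symbol is Col, digits, a and digits, and 43 of 22232 protein-coding genes fitted that rule. Their promoters were read in 10 lists of ChIP-seq peaks (chromatin immunoprecipitation followed by sequencing) from mouse cells of the 46C line, an embryonic stem cell (ES) line that carries a Sox1-GFP reporter of early neural fate. Wild type and shPCGF5 cells, the latter depleted of PCGF5 by a stable short hairpin RNA, were profiled for H2AK119ub1 and for H3K27me3, both as ES grown on mitomycin C-treated mouse embryo fibroblasts with LIF and 2 inhibitors and as neural precursor cells (NPC) at day 6 of neural differentiation in suspension. The remaining 2 lists came from Flag immunoprecipitation in ES and in NPC, labelled wild type, in which the Pcgf5 gene carried a Flag tag knocked in (Flag-PCGF5). Every group was 1 library, so that no spread between replicates could be had and no test of a difference was possible. The hairpin lines of the study were picked as clonal clusters after lentiviral infection, and which hairpin or clone was used is not given in the labels. The level of PCGF5 itself cannot be read from these lists.

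Collagens are the main structural proteins of the extracellular matrix. Fibrillar types build tendon, bone, cartilage and skin, type IV forms the network of basement membranes, and other types decorate fibrils, form beaded filaments or span the cell membrane. Many of them are expressed mainly in mesenchymal, skeletal or epithelial lineages. PCGF5 is a subunit of a variant form of the Polycomb complex PRC1, whose RING1 subunit places a single ubiquitin on histone H2A (H2AK119ub1), while the companion complex PRC2 methylates histone H3 (H3K27me3). Both marks are typical of silent developmental genes with CpG-rich promoters.

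A gene was counted as called in a list when the centre of a peak lay within 2500 bp of one of its protein-coding start sites, and the covered length is the summed width of all such peaks. A list holds only what passed the threshold of the peak caller in its own library, so a promoter without a peak may still carry the mark. Between 3845 and 14759 peaks were listed per histone library, 653 for Flag-PCGF5 in ES and 12013 in NPC. Read totals are unknown, and so counts of called genes depend on depth and background to an unknown degree. The labelled cell types were checked on 3 lists of marker genes. An H3K27me3 promoter peak was found in wild type ES, shPCGF5 ES, wild type NPC and shPCGF5 NPC at 1, 1, 4 and 2 of 6 pluripotency genes, at 3, 3, 3 and 4 of 4 neural precursor genes, and at 5, 6, 5 and 5 of 8 fibroblast genes, beside 13.4%, 12.9%, 15.7% and 15.4% of all genes. More pluripotency genes were thus called in wild type NPC than in the other populations. The neural precursor and fibroblast genes did not set the wild type stages apart, with 3 of 4 and 5 of 8 called in both. These lists hold a repressive mark and no expression, and the part of feeder cells or undifferentiated cells in the results was not tested.

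The promoters differed widely in sequence. The following stretches of 300 bp, each from 250 bp before a start site to 50 bp from it and printed in the direction of transcription with every CpG dinucleotide in capitals, show the range. Col8a2 had the widest H3K27me3 cover in wild type ES and in wild type NPC. Col11a2 and Col18a1 were among the highest in fold of the 5 collagen genes called for Flag-PCGF5 in NPC. Col28a1 and Col20a1 had the lowest CpG ratios among the collagen genes without a peak in any list. For genes with a peak, the start site nearest to it was used. On mm9 these stretches were chr4:125963788-125964087 (Col8a2, plus strand), chr17:34176132-34176431 (Col11a2, plus), chr10:76576642-76576941 (Col18a1, minus, a start site inside the gene), chr6:8142568-8142867 (Col28a1, minus) and chr2:180720990-180721289 (Col20a1, plus).
Col8a2: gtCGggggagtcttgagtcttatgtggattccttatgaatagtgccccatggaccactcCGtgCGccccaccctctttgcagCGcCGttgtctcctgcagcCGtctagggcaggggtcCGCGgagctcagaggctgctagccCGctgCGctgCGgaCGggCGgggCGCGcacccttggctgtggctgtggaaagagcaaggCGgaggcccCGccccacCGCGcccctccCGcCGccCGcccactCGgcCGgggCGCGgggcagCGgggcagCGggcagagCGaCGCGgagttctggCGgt
Col11a2: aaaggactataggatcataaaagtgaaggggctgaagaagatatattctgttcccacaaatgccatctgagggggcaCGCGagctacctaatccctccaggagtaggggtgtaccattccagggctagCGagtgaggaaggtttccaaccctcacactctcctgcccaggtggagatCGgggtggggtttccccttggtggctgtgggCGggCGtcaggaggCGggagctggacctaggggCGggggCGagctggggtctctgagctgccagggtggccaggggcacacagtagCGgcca
Col18a1: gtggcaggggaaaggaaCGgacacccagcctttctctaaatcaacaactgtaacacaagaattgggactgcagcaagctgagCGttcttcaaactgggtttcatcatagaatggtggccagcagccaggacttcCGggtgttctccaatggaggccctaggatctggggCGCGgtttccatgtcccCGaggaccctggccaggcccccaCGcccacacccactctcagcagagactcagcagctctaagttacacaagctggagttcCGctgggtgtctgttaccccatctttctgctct
Col28a1: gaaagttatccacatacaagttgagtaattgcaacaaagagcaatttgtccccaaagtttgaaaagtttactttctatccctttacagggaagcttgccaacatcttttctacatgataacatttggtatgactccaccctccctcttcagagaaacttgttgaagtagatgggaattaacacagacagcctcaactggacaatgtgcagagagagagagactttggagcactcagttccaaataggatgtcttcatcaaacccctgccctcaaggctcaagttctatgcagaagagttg
Col20a1: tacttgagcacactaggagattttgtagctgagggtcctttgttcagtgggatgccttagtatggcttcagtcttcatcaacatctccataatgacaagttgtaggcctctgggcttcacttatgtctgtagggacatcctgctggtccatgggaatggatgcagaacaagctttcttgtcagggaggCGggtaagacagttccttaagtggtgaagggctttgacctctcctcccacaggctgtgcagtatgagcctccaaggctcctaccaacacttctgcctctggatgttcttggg
The Col8a2 stretch holds 32 CpG and those of Col11a2 and Col18a1 hold 10 and 8. Col28a1 has 0 and Col20a1 has 1, whereas the median over all genes was 12 and 95.1% of all such stretches hold at least 1 CpG. CG reads the same on both strands, so that 1 count covers both.

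H3K27me3 lay at the promoters of many collagen genes, and at similar numbers of them in all 4 cell populations. In wild type ES 18 of 43 were called, which is 41.9% (95% Wilson interval 28.4 to 56.7) beside 13.4% of all protein-coding genes. In shPCGF5 ES 19 genes (44.2%, 30.4 to 58.9) were called beside 12.9% of all genes. Wild type NPC had 17 (39.5%, 26.4 to 54.4) beside 15.7%, and shPCGF5 NPC 18 (41.9%, 28.4 to 56.7) beside 15.4%. In all 4 populations the interval of the collagen share lay above the share of all genes, and the ratio of the shares was 2.53 to 3.42. With the higher-scoring 50% of each list, shPCGF5 NPC had 7 called genes (16.3%, 8.12% to 30%) beside 10.4% of all genes, so that this interval included the share of all genes. These intervals cover counting error only, and they treat genes as independent although several of them share promoters.

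H2AK119ub1 was called at fewer collagen promoters, with the highest count in wild type ES. There, 11 genes carried a peak (25.6%, 14.9 to 40.2), compared with 6.69% of all genes. The counts were 6 (14%, 6.56 to 27.3) in shPCGF5 ES beside 5.96% of all genes, 4 (9.3%, 3.68 to 21.6) in wild type NPC beside 4.98%, and 5 (11.6%, 5.07 to 24.5) in shPCGF5 NPC beside 4.17%. In wild type NPC the interval included the share of all genes. Flag-PCGF5 was called at 0 collagen promoters in ES (0 to 8.2%), where 0.787% of all genes were called, and at 5 in NPC (11.6%, 5.07 to 24.5), where 13.7% were. In neither list did the collagen share stand apart from that of all genes.

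**Figure D1:**
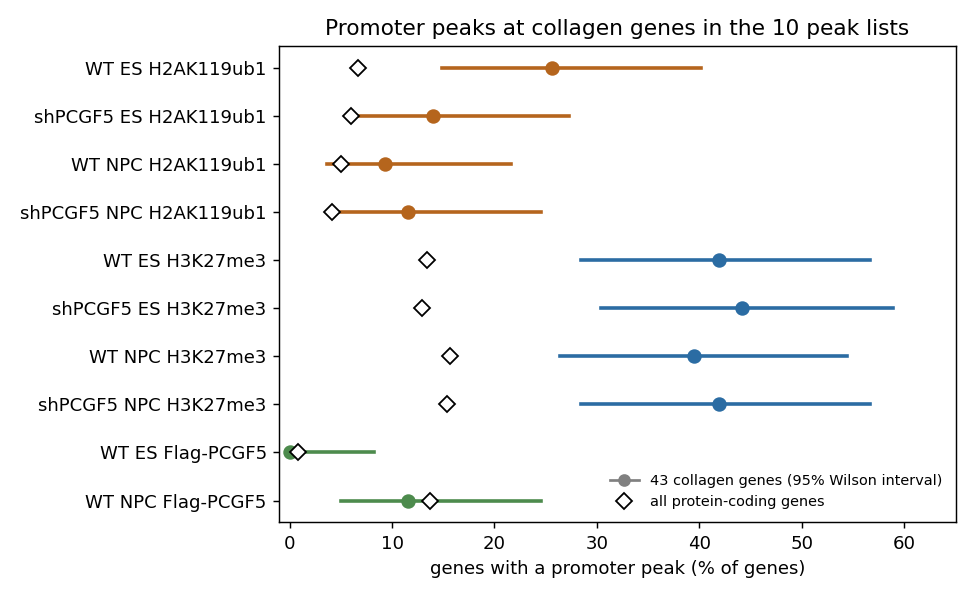
Percent of the 43 collagen genes with a promoter peak in each of the 10 lists (filled circles, lines give 95% Wilson intervals) beside the percent of all 22232 protein-coding genes (open diamonds). The 4 H3K27me3 shares lie between 39.5% and 44.2%, all above those of all genes, while the Flag-PCGF5 shares overlap the diamonds.

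A core of 10 genes was called for H3K27me3 in all 4 lists, namely Col2a1, Col4a1, Col4a2, Col8a2, Col9a2, Col14a1, Col15a1, Col19a1, Col25a1 and Col27a1. That is 23.3% of the collagen genes, against 7.21% of all genes. Another 14 were called in 1 to 3 lists, so that 24 (55.8%, against 23.1%) had H3K27me3 in at least 1 list and 19 had it in none. Of the genes with at least 1 call, 41.7% of the collagen genes and 31.2% of all genes were called in all 4 lists. With a window of 1000 bp, 6 of the core genes were called in all 4 lists, and with the higher-scoring 50% of each list 1 (Col8a2). The shares of all genes at these settings were not calculated. H2AK119ub1 was called in at least 1 list at 16 collagen genes (37.2%, against 12%). It was called in all 4 lists at 0 of them, beside 1.52% of all genes and 12.7% of all genes with at least 1 call, and 9 of the 16 were called in 1 list alone. Altogether 14 collagen genes had no promoter peak of any kind, Col3a1, Col4a5, Col4a6, Col5a2, Col6a2, Col6a4, Col6a5, Col9a1, Col10a1, Col11a1, Col20a1, Col22a1, Col24a1 and Col28a1.

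Col8a2, whose product forms a hexagonal network in the basement membrane of the corneal endothelium, had the widest H3K27me3 cover in every list. It was covered over 1986 bp in wild type ES, 2382 bp in shPCGF5 ES, 5650 bp in wild type NPC and 5369 bp in shPCGF5 NPC. The cover was divided between the most upstream start site and start sites inside the gene, with 2462 bp around the former and 3188 bp around the latter in wild type NPC. Its highest peak in wild type NPC (chr4:125963145-125965299) had a fold enrichment over background of 9.92, higher-scoring than 97.8% of the peaks of that list. Both NPC lists thus held broader domains than either ES list.

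Col14a1, a fibril-associated collagen of tendon and skin, was covered over 925 bp in wild type ES, 583 bp in shPCGF5 ES, 3294 bp in wild type NPC and 1639 bp in shPCGF5 NPC. In wild type NPC this was a single unbroken peak across the start site (chr15:55138117-55141410, fold 6.51), whereas 5 separate peaks were called over the same stretch in shPCGF5 NPC. Col27a1, a fibrillar collagen of growth plate cartilage, was covered over 1492, 453, 1704 and 2001 bp in the same order of lists. Its peak in wild type NPC (chr4:62874780-62876180) had the highest fold of all collagen promoter peaks in that list, 10.3. Its centre lay at -989 bp from the protein-coding start site and inside the annotated gene, which begins further upstream.

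Col2a1, the collagen of cartilage, showed the reverse order between the NPC lists. Its cover was 788 bp in wild type ES, 1243 bp in shPCGF5 ES, 328 bp in wild type NPC and 2244 bp in shPCGF5 NPC. The only peak in wild type NPC lay in an intron 1731.5 bp after the nearest start site, while a peak of 1535 bp spanned the start in shPCGF5 NPC. Col19a1, a fibril-associated chain, was covered over 580, 662, 1859 and 1300 bp. The widest peak of Col19a1 was that of wild type NPC (1601 bp, fold 8.58).

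Col15a1, a multiplexin that links basement membranes to the fibrils beneath them, was covered over 1322 bp in wild type ES, 535 bp in shPCGF5 ES, 1708 bp in wild type NPC and 427 bp in shPCGF5 NPC. Col4a1 and Col4a2, which encode the most widespread basement membrane chains, are divergent neighbours whose start sites lie 21 bp apart, and they share their peaks. Their common cover was 1199, 581, 1434 and 206 bp in that order. Col25a1, a transmembrane collagen of neurons, was covered over 639, 676, 1089 and 315 bp, and Col9a2, a cartilage chain, over 328, 498, 1398 and 324 bp. At Col4a1 and Col4a2, Col9a2, Col15a1 and Col25a1 the narrowest cover was that of shPCGF5 NPC and the widest that of wild type NPC.

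**Figure D2:**
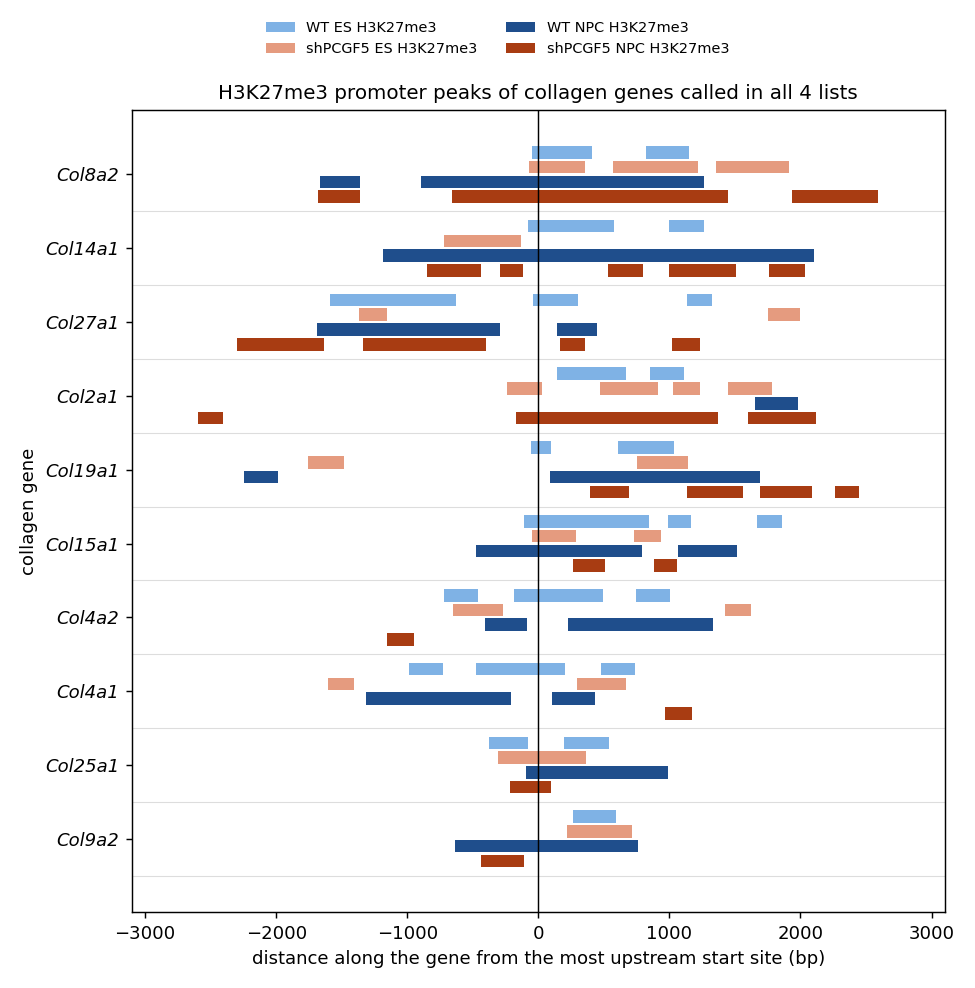
H3K27me3 peaks of the 10 collagen genes called in all 4 lists, drawn by distance along the gene (bp, negative is upstream) from the most upstream protein-coding start site. Each bar is 1 peak of the list given by its colour, and peaks at other start sites, which add 3188 bp to Col8a2 in wild type NPC, are left out. The unbroken bars of Col8a2 and Col14a1 in wild type NPC stand beside shorter or separate bars in ES.

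By class, H3K27me3 was called in at least 1 list at 6 of 11 fibrillar genes, 4 of 6 type IV genes, 1 of 6 type VI genes and 6 of 9 fibril-associated (FACIT) genes, beside 23.1% of all genes. Among fibrillar genes in wild type ES, shPCGF5 ES, wild type NPC and shPCGF5 NPC, 4, 5, 3 and 6 were called, beside 13.4%, 12.9%, 15.7% and 15.4% of all genes. Col2a1 and Col27a1 were called in all 4 lists, and Col3a1, Col5a2, Col5a3, Col11a1 and Col24a1 in none. Col1a1 and Col1a2, the chains of type I collagen of bone and skin, were not called in wild type ES. Col1a1 was covered over 0, 766, 317 and 867 bp, and Col1a2 over 0, 438, 0 and 528 bp. Col1a2 was thus called in both shPCGF5 lists and in neither wild type list, although its peaks in the 2 shPCGF5 lists did not overlap. Its highest score in shPCGF5 NPC (fold 3.17) was low, above only 9.61% of the peaks of that list.

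The type IV genes lie as 3 divergent pairs. Col4a3 and Col4a4, the chains of the glomerular basement membrane, have start sites 127 bp apart and shared cover of 757 bp in wild type ES, 201 bp in shPCGF5 ES, 245 bp in wild type NPC and 0 bp in shPCGF5 NPC. The pair Col4a5 and Col4a6 on the X chromosome, with starts 1309 bp apart, had no peak in any list. Counted as promoter loci, the 43 genes came to 40, of which 16, 17, 15 and 17 were called for H3K27me3 in the same order of lists. Counted by gene, 13.4%, 12.9%, 15.7% and 15.4% of all genes were called, and the share of loci over all genes was not calculated.

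The type VI genes encode the beaded filaments around cells. For H3K27me3, Col6a6 was the type VI gene called, in shPCGF5 ES alone (330 bp, fold 3.58, with a score above only 6.37% of the peaks of its list). Col6a1 and Col6a3 instead had an H2AK119ub1 peak in wild type ES, of 299 bp and 249 bp, centred at 29 bp and -38 bp from the start site. Neither had H3K27me3 at the promoter in any list. The nearest H3K27me3 peak of Col6a1 in wild type ES had its centre 3167.5 bp from a start site, just outside the window, while that of Col11a2 at 2442.5 bp was the nearest inside it.

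Among the FACIT genes, Col9a2, Col14a1 and Col19a1 belonged to the core. Col12a1, found on fibrils of tendon and ligament, was covered over 0 bp in wild type ES, 682 bp in shPCGF5 ES, 2733 bp in wild type NPC and 1832 bp in shPCGF5 NPC. Col16a1 was covered over 751, 266, 0 and 938 bp, partly at a start site inside the gene, and Col9a3 over 0, 0, 203 and 0 bp. Of the 4 transmembrane genes, Col13a1 had a small peak in wild type ES and wide cover in NPC, with 155, 0, 3795 and 3109 bp. Col17a1, the hemidesmosome collagen of skin, had no H3K27me3 in any list. Col7a1, which anchors the epidermis, was covered over 559 and 610 bp in the ES lists and not called in the NPC lists. The network gene Col8a1 was called in wild type NPC alone (462 bp), Col10a1 of hypertrophic cartilage in none, and Col18a1, the other multiplexin, in none for either histone mark.

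**Figure D3:**
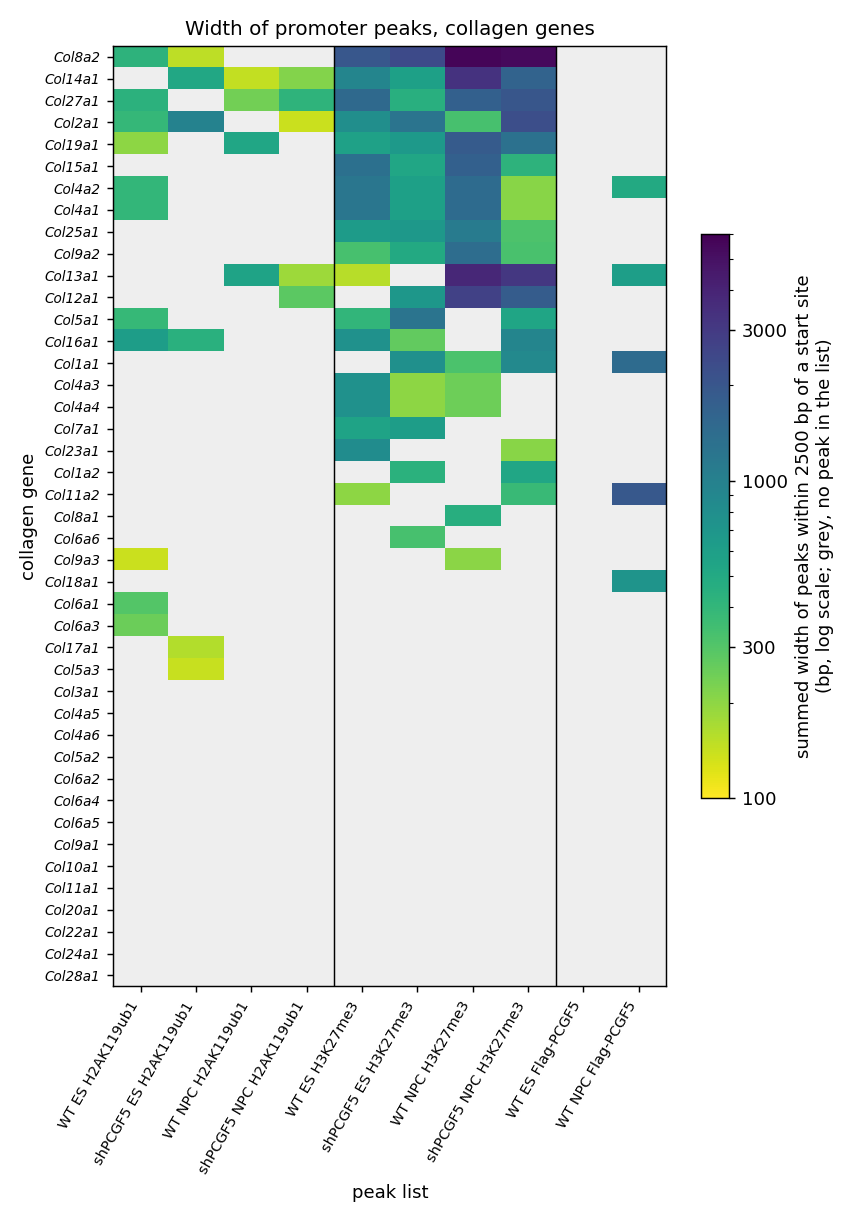
Covered length (bp, colour on a log scale, grey where no peak was listed) of promoter peaks of the 43 collagen genes (rows) in the 10 lists (columns), with black lines between the marks. The rows are ordered by the number of H3K27me3 lists with a peak and then by covered length, so that the core of 10 genes stands at the top and the 14 genes without any peak at the bottom.

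The comparison of stages set the lists of NPC beside those of ES of the same genotype. In wild type cells, 13 collagen genes had H3K27me3 in both lists, 5 in ES alone (Col5a1, Col7a1, Col11a2, Col16a1 and Col23a1) and 4 in NPC alone (Col1a1, Col8a1, Col9a3 and Col12a1). Calls in ES alone made up 3.81% of all genes, and calls in NPC alone 6.08%. Of the 18 genes called in ES, 72.2% (49.1 to 87.5) were called again in NPC, compared with 71.5% of all genes called in ES. In 12 of the 13 the peaks of both stages overlapped, as they did in 91.1% of all genes called in both. The 13 genes were covered over a median of 788 bp in ES and 1434 bp in NPC, and 10 of the 13 were wider in NPC, compared with 86.1% of all genes called in both. Wider cover in NPC was thus shared with most called genes and was not particular to collagen genes. The widest differences were those of Col8a2 (3664 bp), Col13a1 (3640 bp) and Col14a1 (2369 bp), and Col2a1 and the pair of Col4a3 and Col4a4 were narrower, with differences of -460 and -512 bp.

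The 5 genes called in wild type ES alone had a median cover of 559 bp there, against 788 bp for the genes called in both stages. Among these, Col23a1, a transmembrane collagen, was covered over 817 bp with a fold of 5.63, Col16a1 over 751 bp, Col7a1 over 559 bp, Col5a1 over 406 bp and Col11a2 over 200 bp. Among the 4 called in wild type NPC alone, Col12a1 was covered over 2733 bp (fold 5.64), Col8a1 over 462 bp, Col1a1 over 317 bp and Col9a3 over 203 bp. The last 3 of these had peak scores above only 14.8%, 9.32% and 3.18% of their list. Col12a1 was thus the sole gene of this group with a broad domain.

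In shPCGF5 cells, 15 genes had H3K27me3 in both stages, 4 in ES alone (Col4a3, Col4a4, Col6a6 and Col7a1, beside 3.07% of all genes) and 3 in NPC alone (Col11a2, Col13a1 and Col23a1, beside 5.6%). The overlap of calls was 78.9% (56.7 to 91.5) of the ES genes, against 76.3% of all genes. Of the 15, 9 were wider in NPC, with medians of 583 and 867 bp, and among all genes 79.5% were. In both genotypes Col7a1 was called in ES alone and Col8a2, Col14a1, Col19a1 and Col27a1 were wider in NPC. The Col7a1 peaks of the ES lists did not overlap, with the nearest centre 1922 bp after the start site in wild type and 120.5 bp after it in shPCGF5.

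The comparison of genotypes set the lists of shPCGF5 cells beside those of wild type cells at the same stage. In ES, 15 collagen genes had H3K27me3 in both genotypes, 3 in wild type alone (Col11a2, Col13a1 and Col23a1, beside 3.9% of all genes) and 4 in shPCGF5 alone (Col1a1, Col1a2, Col6a6 and Col12a1, beside 3.43%). The cover of these 4 in shPCGF5 ES was 766, 438, 330 and 682 bp. Of the 15, 8 were narrower in shPCGF5 and 7 wider, with medians of 757 and 581 bp, and over all genes 44.5% were wider, with medians of 734 and 642 bp. In NPC, 13 were called in both genotypes, 4 in wild type alone (Col4a3, Col4a4, Col8a1 and Col9a3, beside 3.74%) and 5 in shPCGF5 alone (Col1a2, Col5a1, Col11a2, Col16a1 and Col23a1, beside 3.54%). The cover of these 5 was 528, 542, 376, 938 and 206 bp, none as wide as the median gene called in both.

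At the 13 genes called in NPC of both genotypes the cover was narrower in shPCGF5 at 10 and wider at 3, with medians of 1704 and 1300 bp. Over all genes called in both, 30.6% were wider in shPCGF5 and the medians were 1616 and 1204 bp, so that narrower cover was shared with most called genes. The largest differences to the narrower side were at Col14a1 (3294 to 1639 bp), Col15a1 (1708 to 427 bp) and the shared promoter of Col4a1 and Col4a2 (1434 to 206 bp). The 3 wider genes were Col2a1 (328 to 2244 bp), Col1a1 (317 to 867 bp) and Col27a1 (1704 to 2001 bp). In the list of wild type NPC 11371 peaks had a median width of 453 bp, and in that of shPCGF5 NPC 14759 peaks had one of 360 bp, so that the narrower and more numerous peaks held over the whole list.

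H2AK119ub1 in wild type ES was called at Col2a1, Col4a1, Col4a2, Col5a1, Col6a1, Col6a3, Col8a2, Col9a3, Col16a1, Col19a1 and Col27a1. Peaks were narrow, with a cover of 139 bp (Col9a3) to 614 bp (Col16a1) and a median of 390 bp, similar to the 322 bp of all called genes. In shPCGF5 ES the 6 called genes were Col2a1 (975 bp), Col14a1 (517 bp), Col16a1 (448 bp), Col17a1 (160 bp), Col8a2 (151 bp) and Col5a3 (140 bp). In both genotypes Col2a1, Col8a2 and Col16a1 were called, which is 27.3% (9.75 to 56.6) of the 11 wild type genes, compared with 48.8% of all genes. In ES, 8 genes were called in wild type alone, beside 3.43% of all genes, and 3 in shPCGF5 alone, beside 2.69%.

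Wild type NPC had H2AK119ub1 at Col13a1 (556 bp), Col19a1 (534 bp), Col27a1 (239 bp) and Col14a1 (145 bp). Thus 9 genes were called in wild type ES alone, beside 4.22% of all genes, and 2 in NPC alone, beside 2.51%. The genes called in both stages were Col19a1 and Col27a1, 18.2% (5.14 to 47.7) of the ES genes, compared with 37% of all genes, and their peaks in the 2 stages did not overlap. Among all genes called in both stages 68.9% had overlapping peaks, and the collagen value rests on 2 genes. In shPCGF5 NPC the called genes were Col27a1 (419 bp), Col12a1 (280 bp), Col14a1 (213 bp), Col13a1 (183 bp) and Col2a1 (138 bp). Between the NPC genotypes Col13a1, Col14a1 and Col27a1 were called in both, Col19a1 in wild type alone (beside 2.46% of all genes) and Col2a1 and Col12a1 in shPCGF5 alone (beside 1.65%). Between the shPCGF5 stages 4 genes were called in ES alone (beside 3.52%), 3 in NPC alone (beside 1.74%) and Col2a1 and Col14a1 in both, at 975 and 138 bp and at 517 and 213 bp.

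The collagen genes called for H2AK119ub1 were mostly also called for H3K27me3 in the same cells. In wild type ES both marks were at 8 of the 11 genes (72.7%, 43.4 to 90.3), the exceptions being Col6a1, Col6a3 and Col9a3, and of all genes with H2AK119ub1 79.8% also had H3K27me3. In shPCGF5 ES it was 4 of 6 (66.7%, 30 to 90.3), beside 73.3%, with Col5a3 and Col17a1 as exceptions. All 4 genes in wild type NPC and all 5 in shPCGF5 NPC carried both, beside 94.9% and 92.6% of all genes. Peaks of both marks overlapped by position at 3, 1, 4 and 5 of these genes. The share of such overlap over all genes was not calculated, so these counts have no value to stand beside. Promoters with both marks made up 5.34%, 4.37%, 4.73% and 3.86% of all genes in the same order. In reverse, 44.4%, 21.1%, 23.5% and 27.8% of the H3K27me3 genes also had H2AK119ub1, beside 39.9%, 33.8%, 30.2% and 25% over all genes.

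Flag-PCGF5 was called at Col1a1, Col4a2, Col11a2, Col13a1 and Col18a1 in NPC alone (beside 13.5% of all genes) and at 0 collagen genes in ES alone (beside 0.526%). All 5 were thus absent from the much shorter ES list. The highest fold was that of Col1a1 (1433 bp, fold 3.22), whose score lay above 90.1% of the peaks of the list. Col11a2, a minor fibrillar chain of cartilage, had 2 peaks with folds of 1.88 and 2.41 and a cover of 1945 bp. The peaks of Col4a2 (fold 2.32), Col13a1 (fold 1.89) and Col18a1 (fold 2.34) lay at start sites inside the gene, with centres 92.3, 114 and 51.8 kb after the most upstream start site. Their scores lay above only 21.8%, 4.78% and 13.9% of the peaks of the list. With the most upstream start site alone, 2 of 43 genes were called (4.65%). The share of all genes at that setting was not calculated, and the 13.7% given above counts every start site.

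Col13a1 also had H2AK119ub1 in wild type NPC, and Col1a1, Col4a2 and Col13a1 had H3K27me3. The peaks of Flag-PCGF5 and of the marks overlapped at 0 of these genes. At Col4a2 and Col13a1 the Flag-PCGF5 peaks lay at start sites inside the gene, far from the peaks of the marks. At Col1a1 the Flag-PCGF5 peak (chr11:94797733-94799165) instead ended shortly before the H3K27me3 peak (chr11:94799327-94799643). The share of overlapping peaks over all genes was not calculated. Over all genes, Flag-PCGF5 was called together with H2AK119ub1 at 1.13% and together with H3K27me3 at 3.48%. The Flag chromatin was crosslinked with a long-arm agent and formaldehyde and sonicated, whereas the histone chromatin was digested with micrococcal nuclease before light fixation, and peak widths are therefore not comparable between them.

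The promoters of the H3K27me3 genes differed from the others in a property that the choice of genes did not use, the content of CpG. It was measured over 1000 bp centred on the most upstream start site as the observed over the expected number. The median ratio was 0.71 (range 0.48 to 0.78) in the core of 10 genes, 0.45 (0.20 to 0.88) in the 14 genes called in 1 to 3 lists and 0.27 (0.08 to 0.50) in the 19 called in none. The median over all genes was 0.56, and 0.44 over all collagen genes. Over all genes with H3K27me3 in 4 lists the median ratio was 0.69, and over those with it in none 0.48. A higher ratio at H3K27me3 promoters was thus not particular to collagen genes. Promoters with a GC content of at least 50% and a ratio of at least 0.6 were termed CpG-rich. There were 11 among the collagen genes (25.6%, against 44.7% of all genes), namely Col2a1, Col4a1, Col4a2, Col5a1, Col8a2, Col12a1, Col13a1, Col15a1, Col23a1, Col25a1 and Col27a1. The share of CpG-rich promoters was thus lower among collagen genes than among all genes, a difference that was not tested.

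All 11 CpG-rich collagen promoters had H3K27me3 in at least 1 list, compared with 29.1% of all CpG-rich promoters. In wild type ES 10 of 11 were called (90.9%, 62.3 to 98.4) beside 17.6%, in shPCGF5 ES 9 beside 17.4%, in wild type NPC 9 beside 21.9% and in shPCGF5 NPC 11 beside 21%. Among the other 32 promoters 8 (25%, 13.3 to 42.1), 10, 8 and 7 were called, beside 9.97%, 9.32%, 10.6% and 11% of all such promoters. For H2AK119ub1 in wild type ES 6 of the 11 were called beside 8.64%, and 5 of the 32 beside 5.12%. In shPCGF5 ES, wild type NPC and shPCGF5 NPC H2AK119ub1 was called at 2, 2 and 4 of the 11, beside 7.62%, 7.55% and 6.18%, and at 4, 2 and 1 of the 32, beside 4.61%, 2.91% and 2.55%. Flag-PCGF5 was called in ES at 0 of the 11 and 0 of the 32, beside 1.1% and 0.537%. In NPC it was called at 2 and 3, beside 20.3% and 8.44%. The 2 were Col4a2 and Col13a1, whose Flag-PCGF5 peaks lay 92.3 and 114 kb after the most upstream start site. Col18a1, among the 3, had its peak 51.8 kb after that site. These peaks thus lay outside the stretches measured for CpG. Col19a1 was the core gene that missed the CpG-rich limits by its GC content alone (49.2%, ratio 0.73). At the other end, Col28a1 and Col20a1, whose sequences are printed above, had ratios of 0.08 and 0.09.

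**Figure D4:**
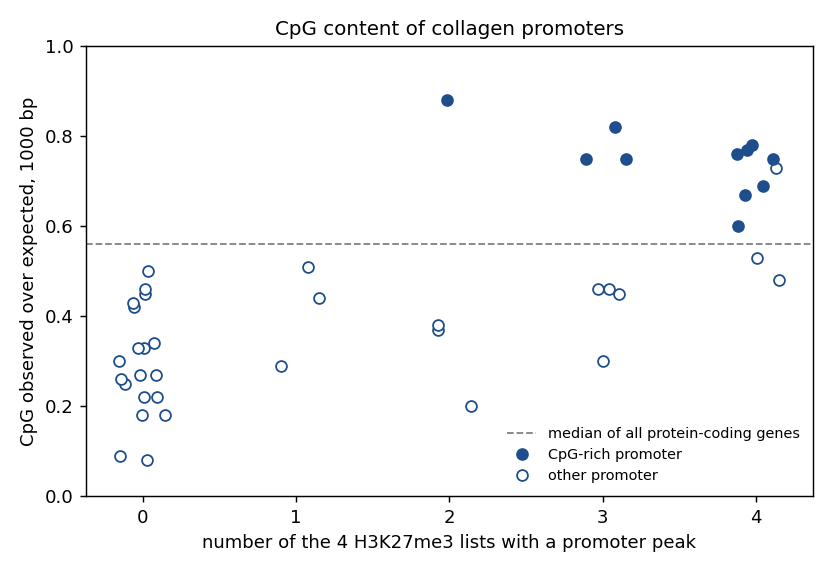
CpG observed over expected in 1000 bp around the most upstream start site (vertical axis) of the 43 collagen genes, by the number of H3K27me3 lists with a promoter peak (horizontal axis, points spread sideways). Filled points are CpG-rich promoters, the dashed line is the median of all genes (0.56), and all 19 genes called in no list lie at or below 0.50.

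Collagen genes are long, with a median length of 114 kb (range 7.11 to 419 kb) against 15.4 kb over all genes, and peaks inside the gene were counted apart. H3K27me3 peaks lay anywhere from 2500 bp before the start to the end of the gene at 24 genes in wild type ES (55.8%, against 16.9% of all genes), 20 in shPCGF5 ES (against 16.2%), 18 in wild type NPC (against 17.6%) and 21 in shPCGF5 NPC (against 17.5%). Per megabase of gene this came to 13.9, 10.6, 6.97 and 11.8 peaks, beside 8.96, 7.81, 8.58 and 11 over all genes. Wild type ES had 6 genes with such peaks and none at the promoter, namely Col6a1, Col6a2, Col6a3, Col6a6, Col12a1 and Col24a1, and the highest folds were those of Col6a6 (9.34) and Col24a1 (8.34). At Col24a1, a fibrillar gene without any promoter peak, H3K27me3 peaks lay 40.7 kb from a start site in both ES lists.

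H2AK119ub1 peaks lay anywhere in 20, 14, 6 and 5 collagen genes in wild type ES, shPCGF5 ES, wild type NPC and shPCGF5 NPC, beside 10.8%, 9.9%, 6.22% and 5.9% of all genes. Per megabase there were 10.3, 4.45, 1.74 and 1.16 peaks, and over all genes 6.13, 4.56, 3.76 and 2.7. The density of collagen genes was thus above that of all genes in wild type ES and below it in NPC. Flag-PCGF5 peaks lay in 2 genes in ES, Col11a2 (fold 4.97) and Col23a1 (fold 13.4), beside 1.53% of all genes, and in 15 in NPC, beside 22.1%. Col23a1 lies within 1 of 9 stretches of 5 Mb where peaks of high fold (8 or above) cluster in that ES list. The most Flag-PCGF5 peaks within a gene without a promoter peak in NPC were the 6 of Col5a1, with folds up to 2.29.

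Genes that act with the collagens were described from fixed lists. Of 26 enzymes of collagen synthesis, folding and crosslinking, 11, 11, 12 and 14 had H3K27me3 at the promoter in wild type ES, shPCGF5 ES, wild type NPC and shPCGF5 NPC, which is 42.3% and 46.2% in wild type ES and NPC. Over all genes 13.4%, 12.9%, 15.7% and 15.4% were called in these 4 lists. Of 8 collagen receptors 3, 4, 3 and 3 were called, and of 11 laminin chains, the other main component of basement membranes, 3, 1, 4 and 5. H2AK119ub1 was called at 5, 3, 1 and 0 of the enzymes, 1, 2, 0 and 0 of the receptors and 1 laminin in each list, beside 6.69%, 5.96%, 4.98% and 4.17% of all genes. Flag-PCGF5 was called in ES at 1 enzyme and at 0 of the receptors and laminins, and in NPC at 5, 2 and 1, beside 0.787% and 13.7% of all genes.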

How the data were processed

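ChIP-seq peak lists of 10 libraries, 1 per group, were analysed, and the 6 input libraries were not used here. According to the methods of the study, the authors trimmed reads, aligned them to mm9 with Bowtie2, removed duplicates and ran the peak caller MACS2 library by library (version 2.1.0 in the submitters' processing notes). The Drosophila spike-in does not enter the lists. The deposited lists give, per peak, a score, a fold enrichment ratio, a −log10 p-value and −log10 q-value and a summit offset, as the authors' caller wrote them. They were used only within a list. In 6 lists some peaks had a q-value above 0.05. Depth is unknown.

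Groups came from the sample labels. Start sites were those of protein-coding transcripts of GENCODE M1 on NCBIM37 (mm9), and a gene was called when a peak centre lay within 2500 bp. Shares carry 95% Wilson intervals, which cover counting error only. With 1 library per group no test was made. Named genes were those with H3K27me3 in all 4 lists, those whose H3K27me3 call differed by stage or genotype (up to 10 per comparison, widest first), those with an H2AK119ub1 or Flag-PCGF5 promoter peak, and those nearest the 2500 bp limit. Genes named for peaks inside the gene or for their class were chosen after their values were seen. The members and all gene lists, markers included, were chosen with earlier results of these data known. Of 5 neural markers 4 were in the annotation and the other was not analysed here. High-fold stretches were 5 Mb windows with at least 5 Flag-PCGF5 peaks of a fold of 8 or more. CpG measures and sequences were read from NCBIM37, for 22231 genes. The sequence of 1 promoter that the rule would show is not reported here. Calls were checked against bedtools 2.31.1 with 0 differences and tested on simulated data. Python 3.11.15, NumPy 2.4.6, SciPy 1.17.1 and pysam 0.24.0 were used. Alternatives were another window or start site, peaks touching the window by any base, stricter lists, equal numbers of peaks and loci in place of genes. The assignment of each peak to the nearest start site only was added after seeing the data.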

Additional observations from a re-analysis of the deposited data

Results flagged for a closer look

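Several values had opposite signs in groups that were compared in the same way, and with 1 library per group none of these differences was tested. From wild type to shPCGF5 the number of collagen genes with an H2AK119ub1 promoter peak differed by -5 in ES and by 1 in NPC, while the number over all genes differed by -164 and -180. The H3K27me3 cover of Col11a2 differed by -200 bp from wild type to shPCGF5 in ES and by 376 bp in NPC, and, since its cover was 0 bp in the remaining lists, by -200 bp from ES to NPC in wild type and by 376 bp in shPCGF5. The cover of Col23a1 likewise differed by -817 bp between genotypes in ES and by 206 bp in NPC, and by -817 bp between stages in wild type and by 206 bp in shPCGF5. The peaks of either gene lay at different positions in the 2 lists that held them. Each library enters several of these differences.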

How the results depend on the processing

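No paired analysis was possible because each group had 1 library, and for the same reason no library could be left out. Of 196 recalculated values 154 stayed within the counting interval or 1.5 times of the reported value. Shares (percent of 43 genes) that moved were, for H2AK119ub1 in wild type ES, 14 with a window of 1000 bp (4.39 over all genes) and 14 with the higher-scoring 50% of peaks, and with the latter also 2.33 in shPCGF5 NPC, and, for H3K27me3, 25.6 in shPCGF5 ES, 25.6 in wild type NPC and 16.3 in shPCGF5 NPC. Over all genes the higher-scoring 50% gave 4.04%, 2.33%, 8.08%, 10.7% and 10.4% in these 5 lists. Flag-PCGF5 in NPC moved to 4.65 with the most upstream start site alone or with the higher-scoring 50%, the latter beside 6.78 over all genes. For the most upstream start site alone, the share over all genes was not calculated. The core of 10 genes fell to 6 with 1000 bp and to 1 (Col8a2) with the higher-scoring 50%. How far the number of all genes called in all 4 lists fell at these settings was not calculated.

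Differences in counts of called genes depended on these choices throughout. For H2AK119ub1, wild type ES to NPC gave -3 (1000 bp), -4 (higher-scoring 50%) and -4 (equal numbers of peaks) in place of -7, and shPCGF5 ES to NPC gave 0 (1000 bp), 0 (most upstream start), -3 (higher-scoring 50%) and 1 (equal numbers) in place of -1. Wild type to shPCGF5 gave -2 (1000 bp) and -2 (higher-scoring 50%) in place of -5 in ES, and -1 (higher-scoring 50%) and 3 (equal numbers) in place of 1 in NPC. For H3K27me3, wild type ES to NPC gave 0 (1000 bp) and -3 (higher-scoring 50%) in place of -1, and shPCGF5 ES to NPC gave -2 (1000 bp), 0 (most upstream start), -4 (higher-scoring 50%), 0 (promoter loci) and -3 (equal numbers) in place of -1. Wild type to shPCGF5 gave 2 (1000 bp), 0 (most upstream start) and -3 (higher-scoring 50%) in place of 1 in ES, and 0 (1000 bp), -4 (higher-scoring 50%), 2 (promoter loci) and -1 (equal numbers) in place of 1 in NPC. Flag-PCGF5 from ES to NPC gave 2 (most upstream start), 2 (higher-scoring 50%) and 0 (equal numbers) in place of 5. Genes with both marks were 3 (1000 bp) and 3 (higher-scoring 50%) in place of 8 in wild type ES, and with the higher-scoring 50% 2 in place of 4 in wild type NPC and 1 in place of 5 in shPCGF5 NPC. The cause was not tested.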

Other observations

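Col9a3 and Col20a1 lie near the end of chromosome 2, 0.527 and 0.916 Mb from the nearest Flag-PCGF5 peak of a fold of 8 or more in NPC, and neither had a Flag-PCGF5 promoter peak. Of the 151 pairs of a collagen gene and an H3K27me3 promoter peak, 97 had the peak centre after the start site and 54 before it, and 81 centres lay in introns, 29 in exons and 41 upstream. Peaks shared by Col4a1 and Col4a2 or by Col4a3 and Col4a4 entered once for each gene. The split over all genes was not calculated. In 11 of these pairs, and in 2 of 37 for H2AK119ub1, the start site of another gene was nearer.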
